A study of Homo sapiens with 9 samples.

Results

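Vimentin and the keratins KRT7, KRT8, KRT17, KRT18 and KRT19 were examined in LX-2 cells, a human hepatic stellate cell line kept in culture. The 6 genes were taken by their symbols from the 20777 genes listed, and all 6 had enough reads to be tested. The set was selected on gene symbols with the counts and fold changes of these same libraries already known, so their levels and differences are given as a description without a test. Total RNA was sequenced in 9 libraries. The control group held 3 libraries for which the labels state no treatment, the TGF-β group held 3 libraries labelled TGF-β at day 1, and the TGF-β + uridine group held 3 libraries labelled with both agents at day 1. All 9 libraries came from this 1 line, with the genotype given as "wide type". TGF-β is the cytokine used to activate stellate cells, and the study asked whether the nucleoside uridine acts on activated cells. No group received uridine without TGF-β, and nothing in the labels states that the 3 libraries of a group came from separate cultures, so p-values measure only the spread between these samples.

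Keratins and vimentin are intermediate filament proteins. A type I keratin and a type II keratin pair with each other to form a filament, whereas vimentin, a type III protein, assembles with itself. KRT8 (type II) and KRT18 (type I) are the first pair made in simple epithelia, KRT7 (type II) and KRT19 (type I) are known from duct epithelia such as the bile duct, and KRT17 (type I) is known from basal and injured epithelia. Vimentin is the filament protein of mesenchymal cells, stellate cells included.

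The genes lie in 3 places in the GRCh38 genome as annotated by GENCODE v29. KRT7 (ENSG00000135480, chr12:52232520-52252186, plus strand), KRT8 (ENSG00000170421, chr12:52897187-52949954, minus strand) and KRT18 (ENSG00000111057, chr12:52948871-52952901, plus strand) are on chromosome 12. KRT17 (ENSG00000128422, chr17:41619441-41624842, minus strand) and KRT19 (ENSG00000171345, chr17:41523617-41528308, minus strand) are in the type I cluster on chromosome 17. VIM (ENSG00000026025, chr10:17228259-17237593, plus strand) is on chromosome 10. KRT18 is therefore a type I gene that sits outside the type I cluster, and its annotated span overlaps that of KRT8 on the opposite strand. KRT7 overlaps KRT7-AS on the opposite strand and KRT86 on its own strand, and VIM overlaps VIM-AS1. The strand setting of the read counting is not given in the sources used here, so reads of overlapping genes on opposite strands cannot be told apart.

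The coding sequence is shown where the type I genes are most alike, since this similarity bears on which gene a read was counted for. The stretches below are 60 bases of exon 1 that code for the start of the central rod helix, read 5′ to 3′ on the coding strand, with capitals at bases that differ from KRT17.
KRT17: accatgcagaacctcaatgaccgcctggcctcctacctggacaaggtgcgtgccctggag
KRT14: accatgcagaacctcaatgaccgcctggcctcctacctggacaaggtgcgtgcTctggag
KRT16: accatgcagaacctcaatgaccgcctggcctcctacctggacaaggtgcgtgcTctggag
KRT19: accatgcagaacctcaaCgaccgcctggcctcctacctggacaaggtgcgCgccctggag
KRT18: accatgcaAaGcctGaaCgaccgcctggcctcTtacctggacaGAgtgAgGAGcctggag

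These stretches lie at chr17:41624192-41624251 for KRT17, chr17:41586424-41586483 for KRT14, chr17:41612272-41612331 for KRT16, chr17:41527942-41528001 for KRT19 and chr12:52949420-52949479 for KRT18. KRT14 and KRT16 each differ from KRT17 at 1 of the 60 bases, KRT19 at 2 and KRT18 at 11. Over the aligned coding sequence, KRT17 was 85.5% identical to KRT14, 79.4% to KRT16, 73.7% to KRT19 and 64.4% to KRT18.

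The share of 50-base words of the annotated principal coding transcript that also occur in another annotated gene was 37.1% for KRT8 and 31.8% for KRT18. For KRT8 these other genes numbered 37, of which 34 are pseudogenes, and for KRT18 all 43 are pseudogenes. The share was 17.4% for KRT17, 1.79% for KRT19, 0.997% for KRT7 and 0% for VIM. For KRT17 the other genes numbered 6, of which 4 are pseudogenes. KRT17P1 (10.2% of words) and KRT17P2 (9.54%) shared the most with it. No pseudogene of the 6 genes is among the listed symbols, and how reads with several matches were counted is not given in the sources used here. The levels of KRT8, KRT18 and KRT17 are uncertain to that extent, and those of KRT7 and VIM less so.

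The libraries held between 40539751 and 41467124 counts on genes. Levels compared between genes are in FPKM, which is per gene length, and levels compared between groups are in TMM-normalized CPM, which are counts scaled by library size. The control libraries stood apart from each other in how far GC-rich genes were over- or under-represented. The slope of log2 CPM on GC content, for a change of GC content from none to all bases, was 5.65, -0.73 and -4.10 in control libraries 1, 2 and 3. It lay between -0.32 and 0.54 in the TGF-β group, and it was -0.50, 2.28 and -2.69 in the TGF-β + uridine group. The longest transcripts of the 5 keratins have a GC content between 55.7% and 62.9%, above the median of 49.3% over tested genes, and that of VIM is 46.9%. Control library 1 had 1.90 to 2.22 times the CPM of control library 3 for each of the 5 keratins, and 1.15 times for VIM. The TMM factors of these libraries, 0.820 and 1.16, enter these ratios. In counts before scaling, each keratin was still higher in control library 1. VIM was lower there, at 38916 against 47959 in control library 3.

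The level per length placed 5 of the 6 genes among the most abundant mRNAs of LX-2 cells. KRT8 had an FPKM of 2475 ± 435 (SD, n = 3) in control cells and ranked 31 of 20777 genes by group mean. KRT18, its partner, had 1903 ± 386 and ranked 37. KRT7 had 687 ± 106 and ranked 102, KRT17 had 604 ± 150.5 and ranked 114, and VIM had 501 ± 54.7 and ranked 134. These 5 genes were thus all above most mRNAs in untreated cells, with the KRT8 and KRT18 pair at the top. KRT19 was lower by orders of magnitude, at 0.797 ± 0.148 and rank 9070, although its coding sequence resembles that of KRT17.

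The order of levels differed between groups in the place of KRT17. In control cells the order was KRT8, KRT18, KRT7, KRT17, VIM and KRT19. The FPKM ranges of KRT8 and KRT18 overlapped, although KRT8 was the higher in 3 of 3 libraries. The ranges of KRT7, KRT17 and VIM also overlapped between neighbours, whereas KRT18 stood clear of KRT7 and VIM stood clear of KRT19. In the TGF-β group the order was KRT8, KRT17, KRT18, KRT7, VIM and KRT19, and the TGF-β + uridine group had that order too. In both treated groups the ranges of all neighbours were separate. These orders rest on the gene lengths behind the FPKM. For KRT7 that length was 2664 bases, against 1754 for its principal coding transcript. The place of KRT7, and its share of keratin FPKM, are uncertain to that extent. KRT17 therefore stood in place 4 in control cells and in place 2 in both treated groups.

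**Figure D1:**
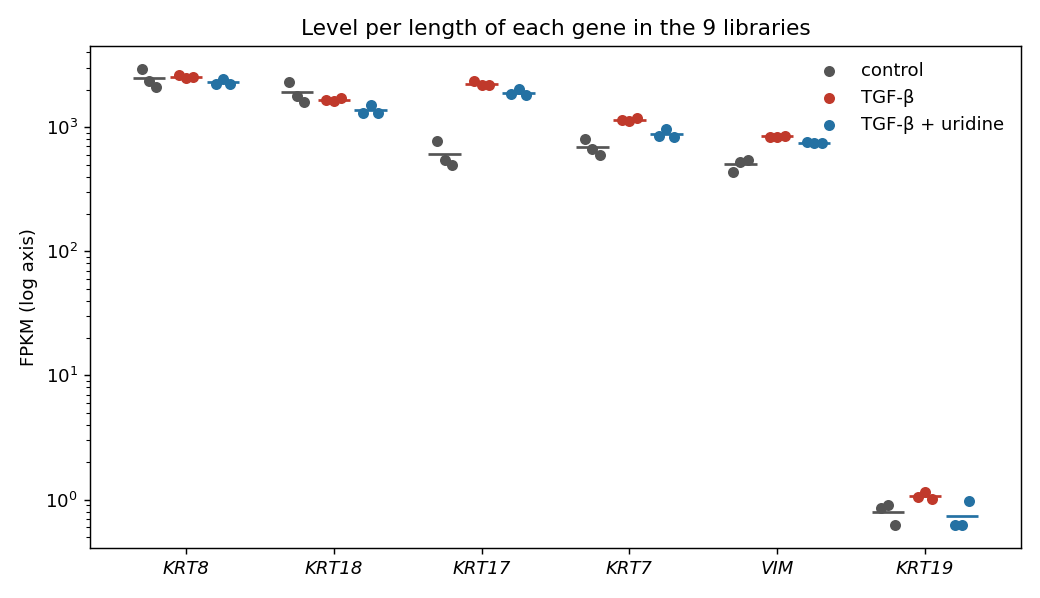
Level per length (FPKM, log axis) of the 6 genes in the control, TGF-β and TGF-β + uridine groups. Each point is a library and each line the mean of 3 libraries. KRT17 lies between 493 and 776 in control libraries and between 1820.2 and 2338 in the 6 treated libraries, and KRT19 stays near 1.

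KRT17 had the largest difference between control and treated cells of the 6 genes. Its FPKM was 776, 544 and 493 in control libraries 1, 2 and 3. It was 2338, 2203 and 2184 in the TGF-β group and 1839.8, 2019 and 1820.2 in the TGF-β + uridine group. All 6 treated libraries were above all 3 control libraries, and the highest control library was the one with the steepest GC slope. On the CPM scale the fitted log2 fold change of TGF-β against control was 1.84 (SE 0.27), a 3.58-fold difference. Against control, the TGF-β + uridine group differed by 1.57 (SE 0.27), or 2.97-fold, and against the TGF-β group by -0.27 (SE 0.26). The CPM ranges of both treated groups overlapped.

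VIM was also higher in both treated groups than in control cells. Its CPM was 1153, 1093 and 1006 in control libraries, 1863, 1807 and 1827 in TGF-β libraries and 1591, 1733 and 1478 in TGF-β + uridine libraries. The 3 groups did not overlap, with control lowest and TGF-β highest. The fitted log2 fold change was 0.76 (SE 0.11) for TGF-β against control, or 1.69-fold, and 0.56 (SE 0.10) for TGF-β + uridine against control. It was -0.19 (SE 0.10) for TGF-β + uridine against TGF-β. VIM had the smallest ratio of the 6 genes between control libraries 1 and 3 on the CPM scale.

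KRT7, the type II keratin of duct epithelia, had CPM values of 2606, 1704 and 1369 in control libraries. It had 3156, 3020.0 and 3118 in TGF-β libraries and 2163, 2788 and 2049.8 in TGF-β + uridine libraries. The TGF-β libraries were above both other groups, whereas the TGF-β + uridine libraries overlapped with control. The log2 fold change was 0.71 (SE 0.23) for TGF-β against control, -0.41 (SE 0.23) for TGF-β + uridine against TGF-β and 0.30 (SE 0.23) for TGF-β + uridine against control.

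KRT8 and KRT18, the primary simple pair, had smaller fitted differences from control than KRT17. KRT8 had CPM values of 7165, 4529 and 3625 in control, 5349, 5007 and 4974 with TGF-β and 4250.0, 5245 and 4061 with TGF-β and uridine. The control libraries spanned the range of both other groups. KRT18 had CPM values of 4256, 2590.4 and 2051 in control, 2578, 2450.0 and 2542 with TGF-β and 1869, 2446 and 1812 with TGF-β and uridine. The TGF-β + uridine libraries were below the TGF-β libraries for KRT18 by a small gap, and both overlapped with control. The log2 fold change of TGF-β against control was 0.0011 (SE 0.23) for KRT8 and -0.23 (SE 0.25) for KRT18, and neither value exceeds its standard error. For TGF-β + uridine against control it was -0.18 (SE 0.23) for KRT8 and -0.54 (SE 0.25) for KRT18, and against TGF-β it was -0.18 (SE 0.23) and -0.31 (SE 0.25).

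KRT19 was counted at a low level in every library. Its counts were 49, 51 and 36 in control, 60, 66 and 57 with TGF-β and 36, 36 and 55 with TGF-β and uridine. The counts of the TGF-β libraries were the highest of the 3 groups, although their CPM overlapped with control. All 9 values are above a floor of 3 counts. The log2 fold change was 0.40 (SE 0.31) for TGF-β against control and -0.57 (SE 0.31) for TGF-β + uridine against TGF-β.

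**Figure D2:**
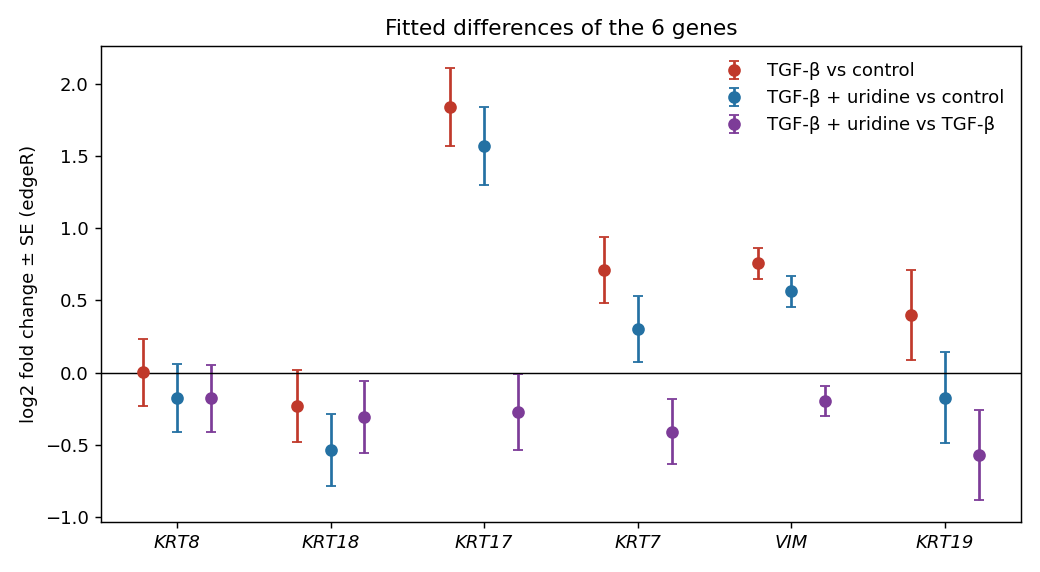
Fitted log2 fold changes (edgeR, bars are standard errors, 3 libraries per group) of the 6 genes in the 3 comparisons. KRT17 is highest at 1.84 and 1.57 in the comparisons with control, VIM and KRT7 lie below 1, and each gene has a value below 0 for TGF-β + uridine against TGF-β.

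The comparisons share libraries, so their values for a gene are not independent. In TGF-β against control, 3.38% of the 13384 tested genes were called by edgeR's quasi-likelihood test at a Benjamini-Hochberg adjusted p under 0.05, and 2 of the 6 genes, KRT17 and VIM, were among them. In TGF-β + uridine against control 5.33% of tested genes were called, and the same pair of symbols was among them. In TGF-β + uridine against TGF-β 0.0448% of tested genes were called and 0 of the 6 genes, while DESeq2 called 1.9% of its tested genes and 0 of the 6. At an unadjusted p under 0.05 in edgeR there were 0 of 6 in this comparison, against 8.79% of all tested genes. That threshold held 3 of 6 against 12.1% for TGF-β against control, and 2 of 6 against 17.6% for TGF-β + uridine against control. For TGF-β + uridine against TGF-β, 4 of 6 had an unadjusted p under 0.05 with only the 2 groups fitted, and also without control library 1. The share of all tested genes at that threshold is not given here for these 2 fits, so the 4 of 6 cannot be judged against it. At an adjusted p under 0.05 these fits called 2.44% and 1.98% of all tested genes, in that order, and 0 of the 6 genes. Since the genes were chosen with these contrasts known, nothing is read from these counts. The CPM ranges of the TGF-β group lay above control for 3 of 6 genes, against 9.72% of all tested genes. Those of the TGF-β + uridine group lay below TGF-β for 4 of 6 genes, KRT7, KRT18, KRT19 and VIM, against 12.8% of all tested genes, and above control for 2 of 6, against 10.5%. In bulk RNA, fewer cells that express a gene and less RNA of it per cell cannot be told apart.

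The ratios of KRT7, KRT8 and KRT17 to KRT18 varied less among the control libraries than the levels of these genes did. Each library is its own reference in such a ratio, so that scaling between libraries has no part in it. The FPKM ratio of KRT17 to KRT18 was 0.333, 0.303 and 0.311 in control libraries. It was 1.40, 1.35 and 1.28 in the TGF-β group and 1.42, 1.33 and 1.39 in the TGF-β + uridine group. KRT17 mRNA was thus below KRT18 mRNA in 3 of 3 control libraries and above it in 6 of 6 treated libraries. The coefficient of variation among control libraries was 24.9% for the FPKM of KRT17, 20.3% for that of KRT18 and 4.79% for their ratio.

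The other ratios to KRT18 differed less between groups. KRT7 stood at 0.363 ± 0.0166 of KRT18 in control, 0.690 ± 0.00253 with TGF-β and 0.642 ± 0.00744 with TGF-β and uridine (SD, n = 3). KRT8 stood at 1.31 ± 0.0333, 1.52 ± 0.0461 and 1.67 ± 0.0507 in the same order, so that the primary pair was not kept at a fixed ratio. VIM stood at 0.274 ± 0.0780, 0.504 ± 0.00692 and 0.550 ± 0.0516. The ratio of each of the other 5 genes to KRT18 lay higher in all TGF-β libraries than in all control libraries, while 15.4% of all tested genes had a ratio to KRT18 that did so. Of these genes, KRT18 had the lowest fitted log2 fold change for TGF-β against control, at -0.23. The choice of KRT18 as denominator thus raises the ratios of the other 5. Since the genes were also chosen with these contrasts known, nothing is read from this count. Between TGF-β + uridine and TGF-β, the ratio of KRT8 was higher without overlap, as were those of 36.9% of all tested genes. The ratio of KRT7 was lower without overlap, as were those of 2.08%. The ratios of KRT17, KRT19 and VIM overlapped between these groups.

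As a share of the summed FPKM of the 5 keratins, KRT17 made up 10.6% ± 0.621 in control, 29.5% ± 0.666 with TGF-β and 29.4% ± 0.358 with TGF-β and uridine. KRT8 made up 43.7% ± 0.591, 33.4% ± 0.235 and 35.6% ± 0.334. KRT18 made up 33.5% ± 0.418, 21.9% ± 0.520 and 21.3% ± 0.459. The shares of KRT8 and KRT18 were lower in each treated library than in each control library, whereas their CPM ranges overlapped with control. Shares are parts of 1 sum, so a larger share of KRT17 lowers those of the others even where their own levels are unchanged. KRT7 made up 12.2% ± 0.413, 15.1% ± 0.366 and 13.7% ± 0.256, and KRT19 stayed under 0.02% in every library. The summed FPKM itself was 5670 ± 1076 in control, 7610.4 ± 149 with TGF-β and 6445 ± 451 with TGF-β and uridine.

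**Figure D3:**
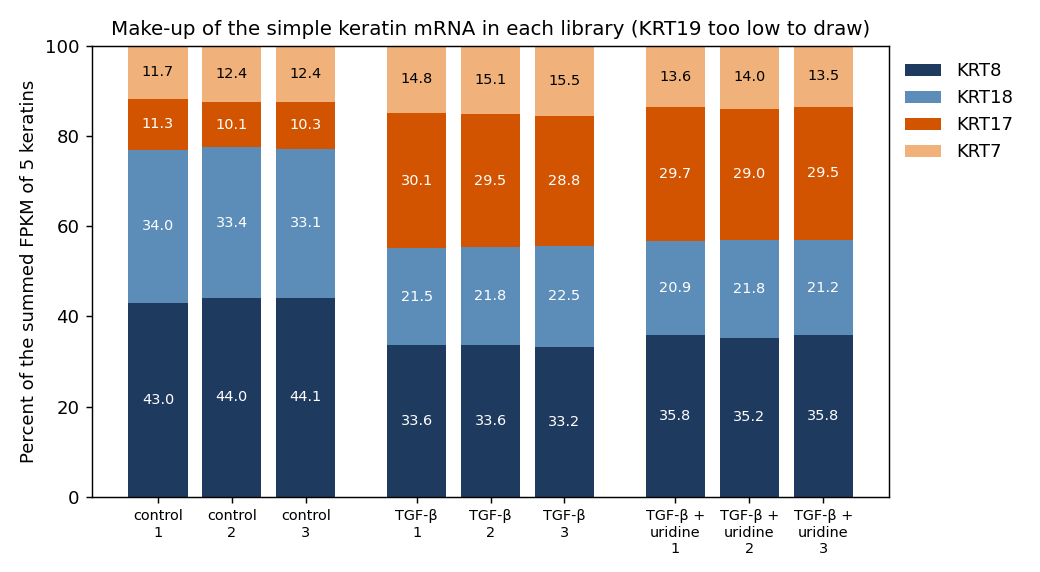
Make-up of the summed FPKM of 5 keratins in each of the 9 libraries, in percent, with KRT19 too low to be drawn. The KRT17 segment is 10.1 to 11.3% in control libraries and 28.8 to 30.1% in treated libraries.

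Type I and type II keratins pair in filaments, and the balance of their FPKM lay on different sides of 1 in control and treated cells. The FPKM of KRT7 and KRT8 over that of KRT17, KRT18 and KRT19 was 1.27 ± 0.0509 in control, 0.945 ± 0.00676 with TGF-β and 0.972 ± 0.00413 with TGF-β and uridine (SD, n = 3). By these FPKM values, type II mRNA was in excess in 3 of 3 control libraries and type I mRNA in 6 of 6 treated libraries. Over all listed keratins the ratio stayed above 1 in each group, at 1.44, 1.12 and 1.15, so the side depends on which keratins are summed. The side also rests on the gene lengths behind the FPKM, with 2664 bases for KRT7 against 1754 for its principal coding transcript. A shorter length would raise the FPKM of KRT7 and with it the ratio. The excess of type I mRNA in treated libraries is uncertain to that extent. The 6 genes together held 1.16% ± 0.183 of all counts in control, 1.58% ± 0.0261 with TGF-β and 1.35% ± 0.0830 with TGF-β and uridine.

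The levels of the 6 genes were set against each other over the 9 libraries as a description. The Pearson correlation of log2 CPM was 0.97 for KRT17 and VIM, 0.91 for KRT8 and KRT18, 0.87 for KRT7 and KRT17 and -0.10 for KRT17 and KRT18. The points share libraries, groups and the GC slope. Among genes whose mean log2 CPM was 1 or more, those most like KRT17 were TP53I3 (0.999), S100A2 and PHLDB1 (each 0.998). Those most like VIM were ANXA5 (0.993), PRR5L (0.992) and LIMS2 (0.991), and those most like KRT7 were MT2A (0.997), DLGAP4 (0.994) and HSPB1 (0.993). KRT8 was followed most closely by NHP2 (0.996), HDGF and UROD (each 0.995), KRT18 by GRK6 (0.997) and SNX33 (0.996), and KRT19 by MRGPRF (0.964), UBA6-DT (0.921) and TMEM44-AS1 (0.865).

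**Figure D4:**
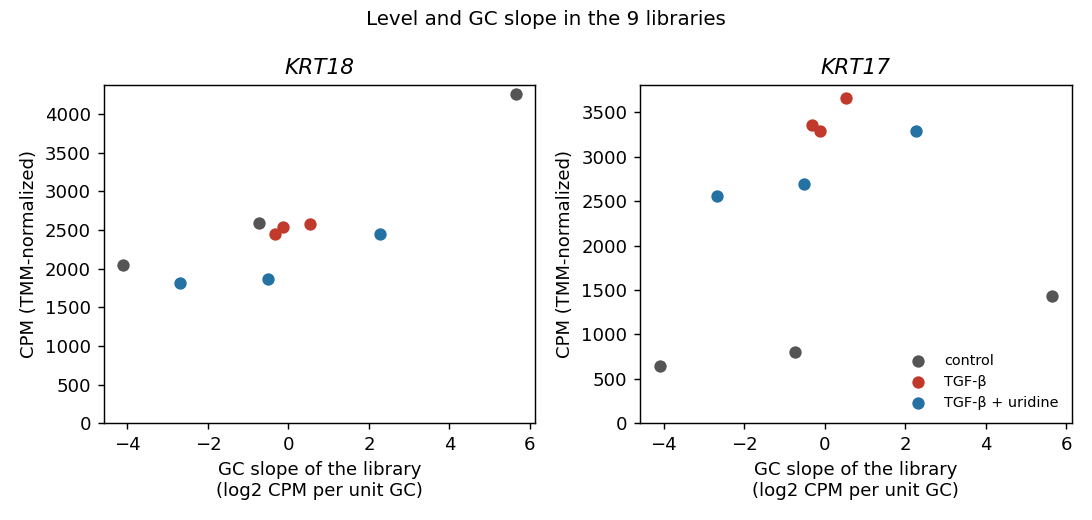
TMM-normalized CPM of KRT18 and KRT17 against the GC slope of each of the 9 libraries (log2 CPM per unit of GC content). Control library 1, with a slope of 5.65, has the highest KRT18 value of all libraries and the highest KRT17 value of the control libraries, which stay below the treated libraries for KRT17.

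With the GC slope of each library as a covariate, a setting chosen after the data had been seen, the log2 fold change of TGF-β against control was 1.95 for KRT17, 0.79 for KRT7, 0.76 for VIM, 0.44 for KRT19, 0.08 for KRT8 and -0.14 for KRT18. In TGF-β + uridine against TGF-β it was -0.24 for KRT17, -0.39 for KRT7, -0.19 for VIM, -0.54 for KRT19, -0.15 for KRT8 and -0.28 for KRT18. These values moved by less than the spread between libraries. This covariate raised the calls over all genes to 20.3% in TGF-β against control, 31.1% in TGF-β + uridine against control and 19.1% in TGF-β + uridine against TGF-β. Of the 6 genes it called KRT7, KRT17, KRT18 and VIM in both comparisons with control, and 5 of 6, all but KRT19, in TGF-β + uridine against TGF-β. Without control library 1 the log2 fold change of TGF-β against control was 2.25 for KRT17, 1.01 for KRT7, 0.32 for KRT8 and 0.12 for KRT18, so that library decided the sign for KRT18.

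Other keratin genes were not among the 6 and were tested, although this list too was taken with earlier results of these data known. Their calls are therefore not independent support for the 6 genes. Of 28 listed, 14 had enough reads. In TGF-β against control 4 rose, 1 fell and 9 did not pass, where 3.38% of all tested genes were called. The median log2 fold change of the 14 was 0.51 against -0.05 over all tested genes. KRT6A, a type II keratin of injured epithelium, rose by 3.90 on the log2 scale used for all differences here (SE 0.29, adjusted p = 1.4e-04 in edgeR's quasi-likelihood test), from 10, 25 and 19 reads in control libraries to 234, 287 and 276. KRT14, the type I keratin of basal epithelium, rose by 3.03 (SE 0.29, edgeR adjusted p = 6.1e-04), from 260, 169 and 162 reads to 1708, 1681 and 1626. KRT16, a partner of KRT6A in wounded skin, rose by 1.65 (SE 0.26, edgeR adjusted p = 0.0088), and KRT9 rose by 1.97 (SE 0.32, edgeR adjusted p = 0.010) from a low level. KRT10, known from differentiated skin, fell by 0.92 (SE 0.09, edgeR adjusted p = 7.7e-04), from 4325, 5916 and 6560 reads to 2928, 3011 and 2788.

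**Figure D5:**
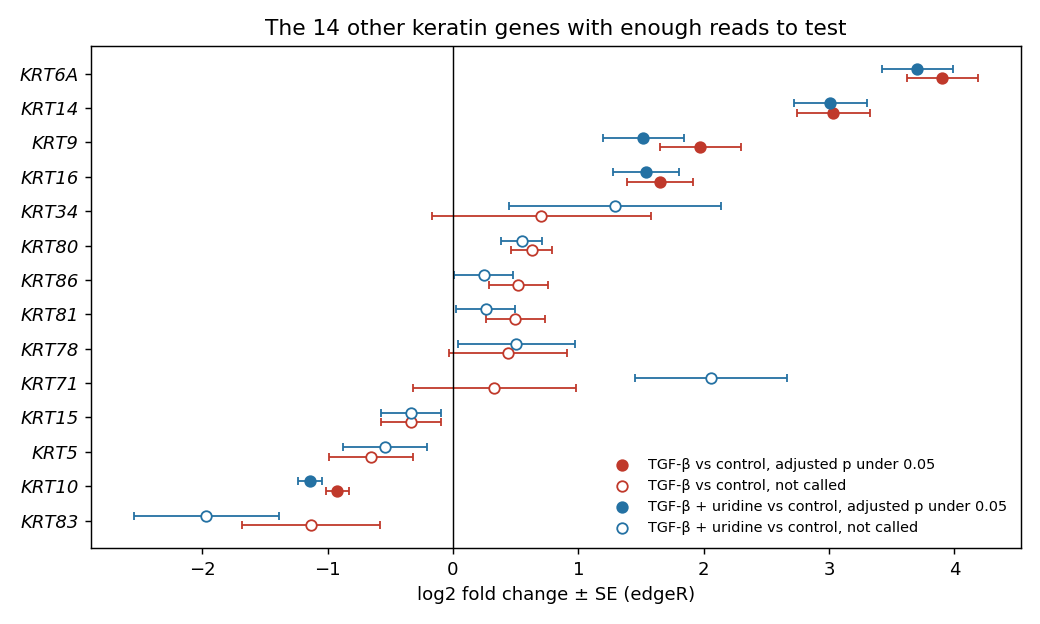
Log2 fold changes (edgeR, bars are standard errors) of the 14 other keratin genes tested, for TGF-β and for TGF-β + uridine against control, with filled points at an adjusted p under 0.05. KRT6A, KRT14, KRT9 and KRT16 lie above 1.5 and KRT10 near -1 in both comparisons.

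The same 5 keratins passed the test for TGF-β + uridine against control, in the same directions, with control libraries shared between both comparisons. In this comparison 5.33% of all tested genes were called. KRT6A rose by 3.70 (SE 0.28, edgeR adjusted p = 1.7e-04) and KRT10 fell by 1.14 (SE 0.09, edgeR adjusted p = 2.3e-04). Between TGF-β + uridine and TGF-β, 0 of the 14 passed in edgeR and 0 of 11 with an adjusted p in DESeq2, and 2 had an unadjusted p under 0.05 in edgeR, KRT10 and KRT71. KRT16 did not pass without control library 2 (edgeR adjusted p = 0.057 for TGF-β against control, where the alternatives ranged from 2.1e-10 to 0.057), whereas KRT6A, KRT14 and KRT10 passed in 17 of 17 alternatives in both comparisons with control. For TGF-β + uridine against control, KRT9 did not pass in 8 of 17 alternatives and KRT16 in 2 of 17, and for TGF-β against control KRT9 did not pass in 2 of 17.

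Whether reads were split between KRT17 and the similar genes KRT14 and KRT16, or the pseudogenes of KRT17, was not tested. KRT14 had 0.523 ± 0.0158 reads per 100 reads of KRT17 in control, 1.20 ± 0.0200 with TGF-β and 1.42 ± 0.0216 with TGF-β and uridine. KRT16 had 3.79 ± 0.0856, 3.32 ± 0.129 and 3.69 ± 0.100 reads per 100 of KRT17. The ratio for KRT14 differed between all 3 groups without overlap, and that for KRT16 stayed between 3.17 and 3.88 in all libraries. KRT81, a hair keratin, was the keratin outside the 6 with the highest level, at an FPKM of 510 in control, and did not pass in any comparison. KRT86 had 2.49, 2.51 and 2.45 reads per 100 reads of KRT81 in the 3 groups, and what part of these is misassigned was not tested. The share of 50-base words found in another annotated gene was 44.6% for KRT81 and 39.2% for KRT86.

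Antisense partners were counted at a small part of the level of the 6 genes. KRT7-AS had 0.311, 0.312 and 0.266 reads per 100 reads of KRT7 in control, TGF-β and TGF-β + uridine. VIM-AS1 had 0.595, 0.516 and 0.490 reads per 100 reads of VIM.

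Of 16 other intermediate filament genes, 15 were listed and 10 tested, and edgeR and DESeq2 each called 0 of them in each comparison. At an unadjusted p under 0.05 in edgeR there were 0 for TGF-β against control, 1 for TGF-β + uridine against TGF-β and 2 for TGF-β + uridine against control. LMNA, a nuclear lamin, was the most abundant with an FPKM of 482 in control. DES, the muscle filament gene that is also a stellate cell marker, had 858, 691 and 592 reads in control and 827, 772 and 706 with TGF-β. GFAP, a marker of quiescent stellate cells, had between 0 and 4 reads per library.

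Of 20 genes whose products bind or anchor filaments, 18 were tested. For TGF-β against control, PPL (periplakin) fell by 0.99 (SE 0.10, edgeR adjusted p = 0.0010) and PKP1 (plakophilin 1) was called higher (edgeR adjusted p = 0.020) at 3, 5 and 2 reads against 48, 22 and 21. PKP1 did not pass in 5 of 16 alternatives. Against control, the TGF-β + uridine group had lower PPL, which fell by 1.41 (SE 0.10, edgeR adjusted p = 1.6e-04), and JUP (plakoglobin) fell by 0.93 (SE 0.15, edgeR adjusted p = 0.0078), while PLEC (plectin), which links filaments to other structures, had -0.35 (SE 0.15) and did not pass. When TGF-β + uridine was set against TGF-β, 0 of 18 passed in edgeR and 5 had an unadjusted p under 0.05, while DESeq2 called 2 lower, EPPK1 and PPL.

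Markers of epithelial cells were in part present. Of 14 markers 7 had enough reads to be tested, and the others were at or near 0, with 0 to 5 reads of EPCAM per library, 0 to 7 of RAB25 and 0 or 1 of ESRP1, GRHL2, OVOL1 and OVOL2. Among those tested, CDH1 had 4 to 36 reads, ST14 had 161 to 199, and MUC1, a mucin of epithelial surfaces, was abundant with 6527 to 11720. For the whole list, the summed FPKM was 79.1 to 95.0 in control, 76.2 to 85.4 with TGF-β and 69.5 to 72.0 with TGF-β and uridine. CLDN4, a claudin, rose by 1.48 (SE 0.18, edgeR adjusted p = 0.0025) with TGF-β against control, and ELF3 fell by 0.88 (SE 0.19, edgeR adjusted p = 0.043), a call that was lost in 11 of 17 alternatives. For TGF-β + uridine against control, CLDN4 rose by 1.57 (SE 0.18, edgeR adjusted p = 0.0017) and CLDN7 fell by 1.59 (SE 0.29, edgeR adjusted p = 0.015), where the call of CLDN7 was lost in 4 of 17 alternatives. In that comparison 5 of the 7 epithelial markers had an unadjusted p under 0.05 in edgeR, against 17.6% of all tested genes. The median log2 fold change of the 7 was -0.68. There DESeq2 called CLDN4 higher and 3 lower, CLDN7, ELF3 and MUC1. Of the other bile duct markers, SOX9 had 5 to 58 reads and SPP1 5 to 32, whereas ANXA4 had 600 to 904, and 0 of these 3 were called by edgeR or by DESeq2 in each comparison. At an unadjusted p under 0.05 in edgeR, SOX9 and SPP1 were found in TGF-β + uridine against control, and 0 of the 3 in the other comparisons.

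Markers of stellate cells and fibroblasts were in part present. COL1A2, a collagen gene of stellate cells and fibroblasts, had 0 or 1 read in each library, and COL3A1 had 17 to 102. PDGFRA, HGF and LRAT are not among the listed genes and were not analysed here. COL1A1 had 1794 to 3089, SPARC 7393 to 13881 and THY1 9510 to 14231. The label of the line as hepatic stellate cells is thus not borne out by COL1A2. However, 9 of the 11 listed markers of this kind had at least 10 counts in every library. The identity of the line was not tested. PDGFRB, ACTA2 and TAGLN rose with TGF-β against control (log2 fold changes 1.25, 1.58 and 1.46, edgeR adjusted p = 0.0016, 0.011 and 0.0051), and the call of ACTA2 was lost in 4 of 17 alternatives. Of 6 genes known to respond to TGF-β, 4 rose, against 3.38% of all tested genes called in either direction. PMEPA1 rose by 2.59 (SE 0.09, edgeR adjusted p = 3.5e-06). Whether other cells had a part in the keratin levels was not tested. Among hepatocyte markers, APOA1 had 0 to 2 reads and SERPINA1 2 to 12, whereas HNF4A had 29 to 79 and CPS1, a urea cycle enzyme, had 1521 to 9071. The reads of CPS1 were 1603, 5377 and 9071 in control libraries 1, 2 and 3, a spread that held the values of both other groups apart from TGF-β + uridine library 2. The summed FPKM of the hepatocyte list was 6.74 to 36.7 in control, 9.70 to 11.1 with TGF-β and 6.32 to 12.4 with TGF-β and uridine, and edgeR called 0 of 2 tested genes in each comparison. At an unadjusted p under 0.05 there were 2 of 2 for TGF-β + uridine against control and 1 of 2 in each other comparison, and DESeq2 called HNF4A lower in TGF-β + uridine against control. Among leukocyte markers CD163 had 0 or 1 read and CD68 had 1181 to 1580. CSF1R rose by 2.04 with TGF-β against control (edgeR adjusted p = 4.1e-04), and CDH5, an endothelial cadherin, was called lower (edgeR adjusted p = 0.031) at 11, 45 and 25 reads against 2, 0 and 3, a call that was lost in 9 of 16 alternatives.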

How the data were processed

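Total RNA of 9 LX-2 libraries was examined in 3 groups of 3, assigned from the sample labels. The authors deposited whole-number read counts per gene symbol, not normalized, and FPKM values of the same genes. The submitters' processing notes name fastp, HISAT2, HTSeq, R 3.2.0 and the build GRCh38.p13. Annotation, strand setting and treatment of multi-mapped reads are not given in the sources used here.

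The quasi-likelihood test of edgeR 4.0.16 (R 4.3.3, TMM factors, genes filtered with filterByExpr) was run on the counts in 1 model of group over all 9 libraries. The filter left 13384 of 20777 genes. Tests were two-sided, with Benjamini-Hochberg adjustment over all tested genes and a threshold of 0.05. Alternatives were DESeq2 1.42.0, RLE and upper-quartile factors, no filter, at least 10 counts in every library, each library left out, a fit on the compared groups alone, a replicate block and, chosen after the data had been seen, a GC slope covariate. The test was first run on simulated data. Libraries held 40539751 to 41467124 counts. Counting error is small for abundant genes, and the floor was 3 counts. GC content was matched for 92.0% of tested genes.

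The 6 genes and all lists (other keratins, other filament genes, filament-binding genes, markers of epithelial, bile duct, hepatocyte, stellate and fibroblast, endothelial and leukocyte cells, and TGF-β response genes) were chosen with earlier results of these data known. Named from a list were genes called in a comparison, the 3 genes of highest mean FPKM, and others given by their counts to show the range of the list, which were chosen after their values were seen. Sequences, coordinates and transcripts come from GENCODE v29. Some results within these rules are not reported here.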

Additional observations from a re-analysis of the deposited data

How the results depend on the processing

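For the 6 genes, 306 of 306 values in the alternatives (18 fold changes) moved by less than the spread between libraries. That spread was the SD of log2 CPM within the compared groups. In comparisons with control it takes in control library 1, so it is wide for the keratins and values could shift within it. For TGF-β against control, KRT8 ran from -0.19 to 0.32 and kept its sign in 10 of 17 alternatives. KRT17 and VIM passed the threshold for TGF-β against control in 17 of 17 alternatives. For TGF-β + uridine against control KRT17 passed in 15 of 17 and VIM in 12 of 17, and neither passed without control replicate 2 or with only the 2 groups compared. Without control replicate 1 KRT7 passed in both comparisons with control. That fit called 7.93% of all tested genes for TGF-β against control and 17.6% for TGF-β + uridine against control. With the GC slope covariate 4 of 6 passed in each comparison with control, KRT7 and KRT18 in addition to KRT17 and VIM, and 5 of 6 in place of 0 in TGF-β + uridine against TGF-β. For the other named genes, 1856 of 2025 values kept their side of the threshold, 82 lost a call and 87 gained one. A change of direction was counted only where a fit called the gene, and there were 0 of these. Values that were not called could change sign. LMNB1, for example, kept its sign for TGF-β against control in 12 of 17 alternatives.

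Over all tested genes, the 453 calls of TGF-β against control (71.5% higher) became 861 with DESeq2 (61.4% higher), 229 with only the 2 groups and 2715 with the GC slope covariate, and with a library left out they numbered 218 (TGF-β replicate 2) to 1085 (control replicate 1), with 218 to 239 for control replicate 2 and each TGF-β replicate. The 6 calls of TGF-β + uridine against TGF-β (0 higher) became 239 with DESeq2, 10 with upper-quartile factors (2 higher, 8 lower), 317 with only the 2 groups and 2554 with the covariate, and ranged from 0 to 271 when a library was left out, the highest without control replicate 1, 4 without control replicate 3 and 0 without each other library. The 714 calls of TGF-β + uridine against control became 1293 with DESeq2, 222 with only the 2 groups and 4162 with the covariate, and ranged from 304 (without control replicate 2) to 2413 (without control replicate 1), with 322 to 450 without each treated library.

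Of the other keratins, filament genes, filament-binding genes and epithelial markers, the covariate called 22 in place of 9 for TGF-β against control. In TGF-β + uridine against TGF-β, 0 calls became 2 with DESeq2, 3 with only the 2 groups, 17 with the covariate and 0 to 4 with a library left out. In TGF-β + uridine against control, 9 calls became 5 with only the 2 groups, 27 with the covariate and 7 to 15 with a library left out. The type II to type I ratio was 1.44, 1.12 and 1.15 over all listed keratins in place of 1.27, 0.945 and 0.972. The cause of these shifts was not tested.

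With replicate number as a block, calls fell from 6 to 0 for TGF-β + uridine against TGF-β, from 714 to 437 for TGF-β + uridine against control and from 453 to 314 for TGF-β against control. Deviations of same-numbered libraries correlated between -0.21 and 0.56, so the numbers were not taken as pairs.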
